A study of Caligus rogercresseyi with 6 samples.

Results

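The larval contigs described here are 113 assembled transcripts of the sea louse Caligus rogercresseyi whose counts lay almost entirely in copepodids and chalimi, among 44089 contigs in the files and 20975 that met the minimum level. They were chosen by measured values: library-scaled counts (CPM, each count scaled to its file total) were computed in the egg, copepodid, chalimus, adult female and adult male libraries, and each library's share of the sum of the 5 CPM was taken. A larval contig had a share of at least 20% in copepodids and at least 20% in chalimi, at least 90% in both together, and a sum of at least 5 CPM. Low egg and adult levels and a chalimus to copepodid ratio within 4-fold are therefore fixed by the choice, and are given as a description with no test.

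The series holds RNA-seq of whole animals labelled wild type, pooled from farmed Atlantic salmon, with 1 library each for egg, copepodid, chalimus, adult female and adult male. How many animals were pooled, and which chalimus stages they were, is not given in the sources used here. Totals ran from 78380827 counts in copepodids to 149426248 in adult females. The remaining file, labelled adult without a sex, totals exactly the female and male counts (difference 0) and enters no comparison. With 1 library per group there is no replicate check and no test of any difference, and intervals cover counting error only.

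Sea lice hatch as nauplii, free-swimming larvae that live on yolk, and the copepodid is the stage that finds and grips a fish. After settlement the animal moults to the chalimus, which is tethered to the host by a frontal filament and feeds on its skin and mucus. Crustaceans grow by moulting, and genes for cuticle proteins are known to be switched on in pulses around each moult. The files carry no gene name and no sequence, so none of the lists prepared by name (cuticle, digestive, muscle, nervous and sensory, yolk, host salmon) could be applied, and no function is given to any contig. Host RNA could not be looked for by name either.

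The larval contigs made up 0.539% of the contigs at or above 5 CPM but took up 2.02% of all counts in chalimi and 1.77% in copepodids. Outside the larvae they held 0.134% of the egg counts, 0.00531% of the adult female counts and 0.0532% of the adult male counts. The median larval contig stood at 1.43 CPM in eggs, 32.1 CPM in copepodids, 49.1 CPM in chalimi, 0.0602 CPM in adult females and 0.192 CPM in adult males. The upper end reached 241 CPM in eggs, 1966 CPM in copepodids, 1609 CPM in chalimi, 10.1 CPM in adult females and 131 CPM in adult males. In bulk RNA of whole animals, fewer cells of a type and less RNA per cell cannot be told apart.

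**Figure D1:**
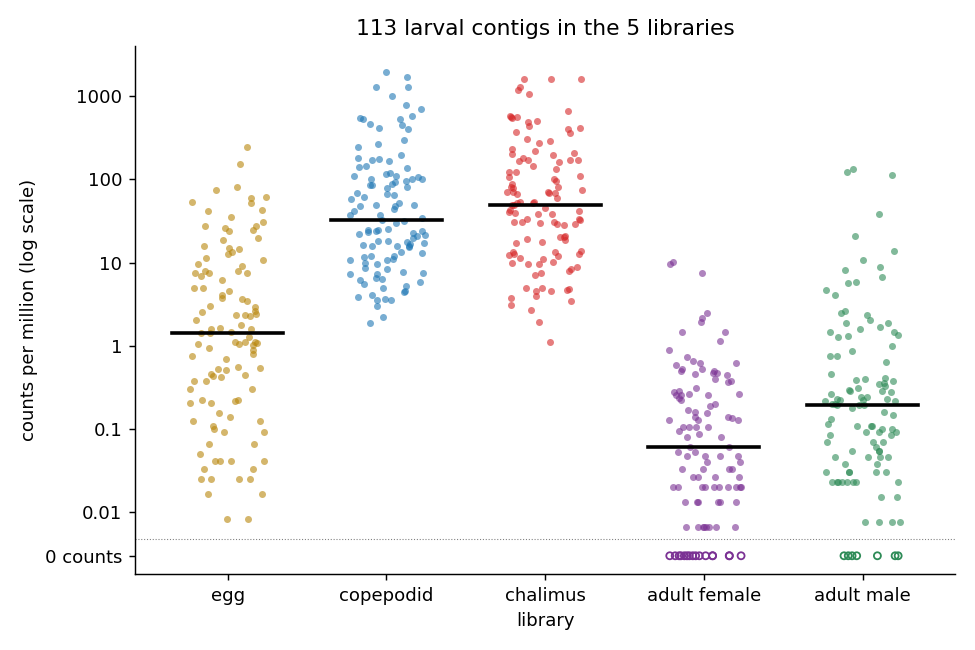
Level in CPM (log scale) of the 113 larval contigs in each of the 5 libraries, 1 point per contig; bars are medians and open circles are contigs with 0 counts. The medians stand at 1.43 CPM in eggs, 32.1 CPM in copepodids, 49.1 CPM in chalimi, 0.0602 CPM in adult females and 0.192 CPM in adult males.

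The counts were concentrated in a minority of the contigs. The 10 with the most larval CPM held 50.4% of the larval contigs' counts in chalimi and 57.4% in copepodids, and the first 20 held 72.7% in chalimi and 76.6% in copepodids. In chalimi 39 of the 113 contigs reached 100 CPM, and in copepodids 32 did. At the other end, 21 contigs were below 10 CPM in chalimi and 25 in copepodids.

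The contig with the most larval counts was GAZX01026628 (1233 nt). It had 24.3 CPM in eggs, 1966 CPM in copepodids, 1291 CPM in chalimi, 0.736 CPM in adult females and 113 CPM in adult males. Both larval libraries were far above egg, and adult males stood well above adult females. Next came GAZX01016514 (827 nt), at 80.8 CPM in eggs, 1296 CPM in copepodids, 1582 CPM in chalimi, 0.475 CPM in adult females and 122 CPM in adult males. These 2 contigs had the same order of libraries outside the larvae, with adult male first, egg second and adult female last.

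Per length, the highest larval contig was GAZX01037933 (534 nt), with a mean of 1980 FPKM (the authors' level per contig length and library total) over both larval libraries. Its levels were 138 FPKM in eggs, 980 FPKM in copepodids, 2979 FPKM in chalimi, 2.15 FPKM in adult females and 4.67 FPKM in adult males. GAZX01013462 (755 nt) followed at a mean of 1792 FPKM, with 319 FPKM in eggs, 2201 FPKM in copepodids, 1384 FPKM in chalimi, 1.17 FPKM in adult females and 0.142 FPKM in adult males. It also had the highest egg level of any larval contig on the CPM scale, 241 CPM. Egg was the highest library outside the larvae for both, unlike in the pair above.

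Length was not used by the rule, apart from the minimum level, which favours long contigs. The larval contigs were nevertheless short, with a median of 606 nt (225 to 1465 nt), against 1470 nt for the 20862 other contigs at or above 5 CPM. None of the 113 reached 2000 nt, whereas 33.6% of the others did. Contigs under 500 nt made up 29.2% of the larval contigs and 9.62% of the others, and contigs of 500 nt to under 1000 nt made up 59.3% of the larval contigs and 21.7% of the others. Put the other way, 1.62% of all contigs under 500 nt at this level were larval contigs, 1.46% of those of 500 nt to under 1000 nt and 0.177% of those of 1000 nt to under 2000 nt.

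**Figure D2:**
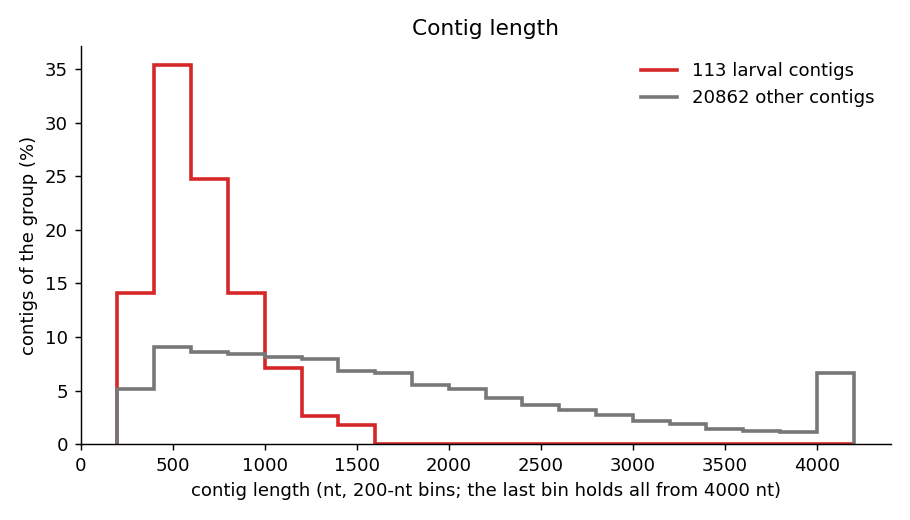
Percent of contigs in 200-nt classes of length, for the 113 larval contigs and the 20862 other contigs with a sum of 5 CPM or more; the last class holds all longer contigs. The larval contigs end at 1465 nt, while 33.6% of the others are 2000 nt or longer.

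The same thresholds applied to the other pairs of libraries gave sets of longer contigs. Chalimus with adult male gave 343 contigs (median 1056 nt), egg with copepodid 290 (1087.5 nt) and egg with adult female 56 (1341 nt). Each of the 6 remaining pairs gave between 2 and 23 contigs. Their median lengths ran from 990 to 2910 nt. Per length, the level averaged over both larval libraries had a median of 70.3 FPKM in the larval contigs and 5.88 FPKM in the other contigs at or above 5 CPM, a difference that the rule itself favours.

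Settlement on the host lies between the copepodid and the chalimus. Among the larval contigs, chalimus was higher in 68 and lower in 45 when libraries were scaled to their totals, but higher in 46 and lower in 67 with TMM scaling and higher in 45 and lower in 68 with DESeq2 size factors, so the majority side depends on the scaling. The median log2 ratio of chalimus over copepodid was 0.34 for the larval contigs with total counts, -0.39 with TMM and -0.42 with DESeq2 size factors. The 15033 contigs with at least 50 counts in both libraries had medians of 0.74, 0.01 and -0.02 under the same scalings. Relative to that median the median of the larval contigs differed by a log2 of -0.40 whichever scaling was used, since scaling moves both alike. The rule caps the ratio of the larval contigs at 4-fold with total counts, while the 15033 have no such cap. That cap by itself can move the median, so nothing is read from this difference. A contig whose log2 ratio lay between 0 and 0.73 with total counts changed sign with TMM.

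At a 2-fold difference with total counts, 39 of the 113 larval contigs were higher in chalimi than in copepodids, which is 34.5%, against 42.3% of all contigs tested, and 15 were lower (13.3%, against 33.5%). The other 59 lay within 2-fold. Contigs seen in 1 larval library alone are among those tested, and over the 15033 with at least 50 counts in both the shares were 42.7% higher and 12.8% lower. The balance turned with the scaling: with TMM 9 of the 113 were 2-fold higher in chalimi and 39 lower (24.9% and 23.9% of the 15033), and with DESeq2 size factors 8 were higher and 39 lower (24.3% and 24.5%). The rule caps the ratio at 4-fold with total counts, and TMM and DESeq2 size factors shift its log2 by -0.73 and -0.76. Higher calls therefore have little room under these scalings and lower calls more, while the 15033 are not capped. Nothing is read from this balance. A 4-fold difference, with at least 50 counts in the higher library, was found for 0 of the 113 in either direction, against 29.1% of all contigs higher and 29.1% lower; the rule that chose the contigs leaves no room for it. With TMM scaling 8 of the 113 (7.08%) passed 4-fold as lower in chalimi and 0 as higher, against 32.0% and 22.9% of all contigs tested. The same cap and shift leave no room for a higher call with TMM, so nothing is read from these values either.

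**Figure D3:**
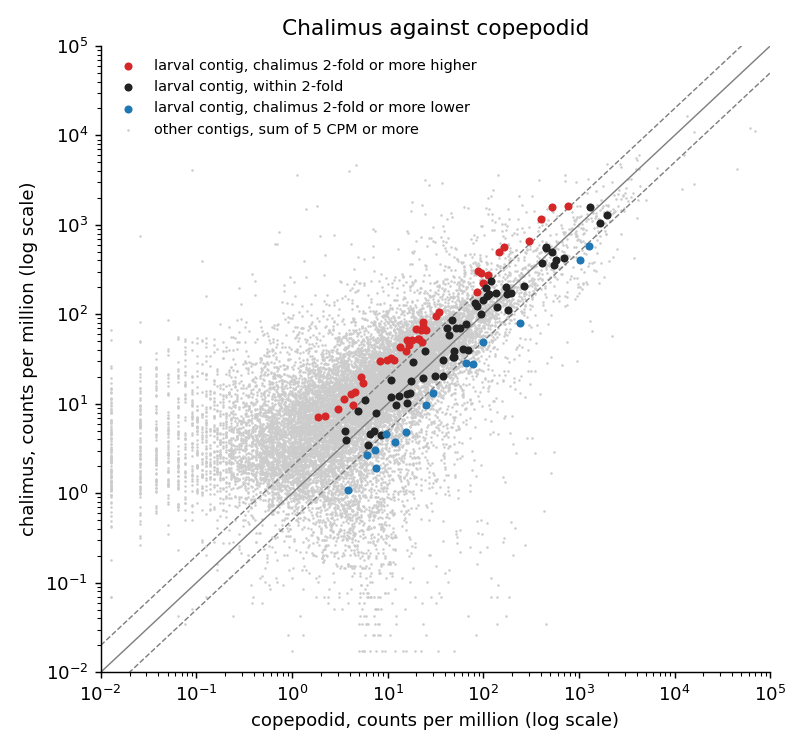
Chalimus against copepodid level of each contig, in CPM on log scales; the 113 larval contigs are coloured by their ratio with total counts (39 at least 2-fold higher in chalimi, 59 within 2-fold, 15 at least 2-fold lower; 9, 65 and 39 with TMM), other contigs at or above 5 CPM are grey, and lines mark equal levels (solid) and 2-fold (dashed). The larval contigs form a band along the diagonal over 3 decades of level because the rule bounds their ratio.

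Among the larval contigs, whose ratio the rule caps at 4-fold, all with at least 50 counts in both larval libraries, it was highest for GAZX01013599 (675 nt), at 20.1 CPM in chalimi and 5.22 CPM in copepodids. Chalimus was 3.86-fold of copepodid (95% exact counting interval 3.47 to 4.30), with 1 count in eggs, 0 in adult females and 1 in adult males. The next was GAZX01011556 (514 nt), at 7.16 CPM in chalimi and 1.86 CPM in copepodids, a 3.84-fold ratio (3.22 to 4.62), with 11 counts in eggs, 0 in adult females and 9 in adult males. Both had few or no counts outside the larvae, and both intervals reach past 4-fold. Under the rule, a ratio this near 4-fold leaves little share for the other libraries.

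The ratio among the larval contigs was lowest for GAZX01021139 (225 nt, the shortest of the 113), with 1.93 CPM in chalimi and 7.49 CPM in copepodids. Its chalimus level was 0.258 of the copepodid level (0.221 to 0.302), with 3 counts in eggs and 0 in both adult libraries. GAZX01032054 (1169 nt) had 1.10 CPM in chalimi and 3.87 CPM in copepodids, a ratio of 0.285 (0.230 to 0.351), with 46 counts in eggs, 0 in adult females and 1 in adult males. The 4 contigs at the ends of the ranking thus stood at or below 20.1 CPM in both larval libraries.

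Larval contigs with nearly equal levels were also found. GAZX01018236 (966 nt) had 171 CPM in chalimi and 175 CPM in copepodids (0.976-fold, 0.955 to 0.997), and GAZX01016825 (475 nt) had 17.9 CPM in chalimi and 17.4 CPM in copepodids (1.03-fold, 0.959 to 1.10). In eggs GAZX01018236 stood at 26.0 CPM and GAZX01016825 at 2.35 CPM. In the adults GAZX01018236 had 39 counts in females and 113 in males, and GAZX01016825 had 0 in females and 4 in males.

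Grouped by the ratio with total counts, the 39 contigs higher in chalimi by 2-fold or more had a median egg share of 1.12%, the 59 within 2-fold 3.19% and the 15 lower in chalimi 2.44%. In the same order, the median lengths of these groups were 660, 548 and 718 nt. The median FPKM over both larval libraries was 67.2 in the first group, 125 in the second and 20.8 in the third. The rule ties the egg share to the ratio, since a ratio nearer 4-fold in either direction leaves less share for the other libraries. The groups also change with the scaling, to 9, 65 and 39 contigs with TMM. Nothing is read from the differences between these groups.

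Egg was the only earlier stage among the samples. All 113 larval contigs had at least 1 count in eggs, but 17 of them had only 1 to 9 counts there. In eggs 66 had 1 CPM or more, 26 had 10 CPM or more and 2 had 100 CPM or more. Copepodid was at least 4-fold above egg in 109 of the 113 (29.4% of all contigs tested were called), and chalimus in 110 (15.1% of all). The rule used these libraries, so nothing is read from these counts. The log2 ratio of copepodid over egg had a median of 4.33 and ran from 1.56 to 11.18, and that of chalimus over egg had a median of 4.91 and ran from 1.52 to 10.72. The larval contigs thus spanned a wide range in their distance from egg, whereas the rule bounds their chalimus to copepodid ratio.

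The egg share was highest, 9.51%, in GAZX01028937 (358 nt), with 10.8 CPM in eggs, 61.3 CPM in copepodids, 41.2 CPM in chalimi, 0.107 CPM in adult females and 0.0845 CPM in adult males. GAZX01032053 (497 nt) came second at 9.39%, with 96 counts in eggs, 289 in copepodids, 462 in chalimi, 2 in adult females and 0 in adult males. In all, 29 of the 113 had an egg share of 5% or more and 40 had less than 1%. With total counts, egg was the highest library outside the larvae for 79 contigs, adult male for 30 and adult female for 4. Some of these ranks rest on few counts: GAZX01013599, placed under egg, had 1 count in eggs and 1 in adult males. The same ranking was not made over all contigs.

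**Figure D4:**
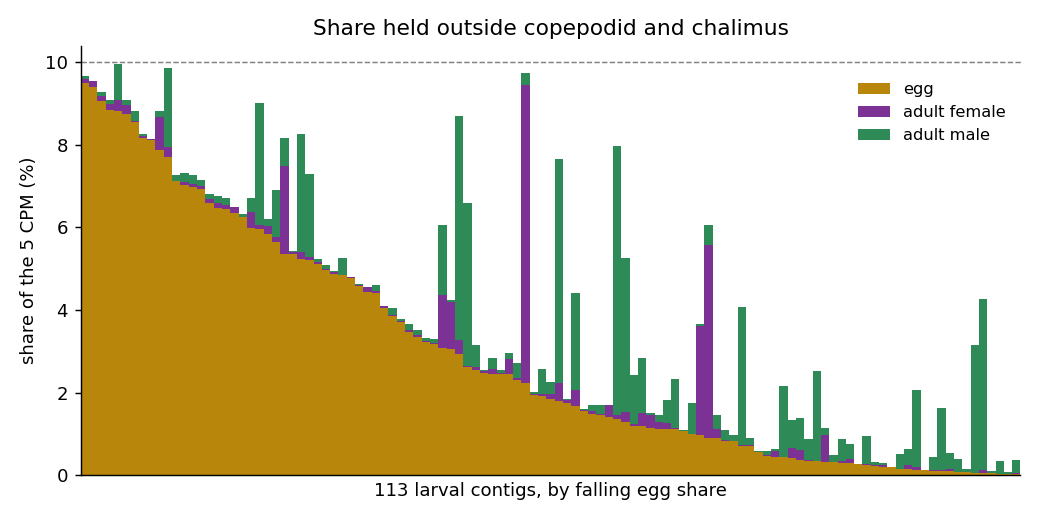
Share of the sum of the 5 CPM held by egg, adult female and adult male in each of the 113 larval contigs, ordered by falling egg share; the dashed line marks the 10% that the rule allows. With total counts, egg is the largest of the 3 in 79 contigs, adult male in 30 and adult female in 4, some of them on few counts.

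In both adult libraries the larval contigs were low. Adult female was at least 4-fold below chalimus in 113 of 113 (19.6% of all contigs tested were called lower) and adult male in 113 of 113 (12.0% of all), both of which the rule nearly fixes. Against copepodid, adult female was 4-fold lower in 112 (36.7% of all) and adult male in 113 (34.6% of all). The median log2 ratio to chalimus was -9.60 in adult females and -7.84 in adult males. Adult female had 0 counts in 16 of the larval contigs and 1 to 9 counts in 42, and adult male had 0 counts in 7 and 1 to 9 in 32; 3 contigs had 0 in both.

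A count of 0 allows up to 3 counts, or 0.0201 CPM in adult females and 0.0230 CPM in adult males. With that limit GAZX01028963 was at least 2512-fold lower in adult females than in chalimi, where it had 6167 counts, and GAZX01004925 was at least 2313-fold lower in adult males than in chalimi, where it had 8124 counts. The first bound takes the female count of 0 as given. It is uncertain, since the file without a sex held 45 counts of GAZX01028963, against 0 in females and 41 in males. These contigs were singled out after their values were seen, as the largest bounds among those at 0 in 1 adult library. The 3 contigs at 0 in both adult libraries were GAZX01003148, GAZX01021139 and GAZX01022527, with 1314, 225 and 1293 counts in chalimi. The file without a sex held 2 counts of GAZX01022527, so its adult count of 0 is not firm.

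Adult female was below adult male in 82 larval contigs and above it in 28. The same count was not made over all contigs. Many of the larval contigs had few adult counts, with 1 to 9 in adult females in 42 and in adult males in 32. The balance of 82 to 28 larval contigs is therefore given as a description only. Of the 44 with at least 50 counts in either adult library, adult female was at least 4-fold lower in 23 (52.3%, against 15.4% of all contigs tested) and at least 4-fold higher in 4 (9.09%, against 18.8%). The median log2 ratio of female over male was -2.18 for these 44 and 0.16 for all contigs tested. With TMM 25 of the 44 were lower and 4 higher (56.8% and 9.09%, against 16.9% and 16.8% of all contigs tested), and with DESeq2 size factors 27 and 4 (61.4% and 9.09%, against 18.9% and 15.1%). The rule sets no balance between the sexes, but it caps both adult libraries, and each sex is 1 library. A contig low in adults can enter the 44 only through the sex where it is higher. GAZX01009926 did so with 1 count in females and 342 in males, and GAZX01022420 with 1504 in females and 25 in males. The minimum count thus favours large differences among the 44, and nothing is read from their size.

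The residual male signal was largest in GAZX01023832 (934 nt), with 27.1 CPM in eggs, 1272 CPM in copepodids, 580 CPM in chalimi, 1.95 CPM in adult females and 131 CPM in adult males, a male share of 6.53%. GAZX01029347 (1039 nt) had a male share of 5.45%, at 1.11 CPM in eggs, 24.9 CPM in copepodids, 9.69 CPM in chalimi, 0.127 CPM in adult females and 2.07 CPM in adult males. Both also belonged to the 15 contigs lower in chalimi than in copepodids by 2-fold or more with total counts. Over the 113, the male share was 1% or more in 22 contigs and the female share in 6.

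The female share was highest in GAZX01022421 (1193 nt), at 7.22%, with 2.30 CPM in eggs, 25.0 CPM in copepodids, 67.7 CPM in chalimi, 7.42 CPM in adult females and 0.284 CPM in adult males. Its adult count is uncertain, since the file without a sex holds 1253 counts where female and male sum to 108 fewer. GAZX01005930 (686 nt) had a female share of 4.67%, with 0.423 CPM in eggs, 10.9 CPM in copepodids, 32.7 CPM in chalimi, 2.17 CPM in adult females and 0.230 CPM in adult males. These 2, with GAZX01013462 and GAZX01022420, were the 4 that stood at least 4-fold higher in adult females than in adult males among the 44 with at least 50 counts in either.

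Identifiers played no part in the rule, yet larval contigs were often neighbours in the identifier order. The identifiers directly before and after each larval contig gave 158 neighbours at or above 5 CPM, counted once per larval contig, and 44 of these were larval contigs themselves (27.8%), against 0.539% of all contigs at that level. Within 10 identifiers, 58.4% of the larval contigs had another larval contig, and 4.38% of the other contigs had one. Of the sets from the other 9 pairs of libraries, 5 also held neighbours: 24.1% of such neighbours were members in the chalimus and male set, 23.0% in the egg and copepodid set, 17.6% in the egg and female set, 18.2% in the female and male set and 14.3% in the chalimus and female set. The remaining 4 sets, of 2 to 19 contigs, held 0. What places contigs side by side in the identifier order is not given in the sources used here.

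The larval ratio differed less, by the median, between consecutive larval contigs than between larval contigs in general. The 22 consecutive pairs differed by a median of 0.58 in log2 chalimus over copepodid, against 1.10 over all 6328 pairs of larval contigs. In 8 of the 22 the difference was under 0.25, which 14.0% of all pairs reached. The spread was wide, up to 1.92 between GAZX01032053 and GAZX01032054. The 22 pairs are not separate observations, since pairs within a run of 3 share a contig. In 14 of the 22, the file without a sex differed from female plus male. Whether neighbours were counted independently was not tested.

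The longest consecutive runs had 3 contigs, and there were 4 such runs. In the first, GAZX01016512 (490 nt) had 14.9 CPM in eggs, 140 CPM in copepodids, 122 CPM in chalimi, 0.495 CPM in adult females and 8.21 CPM in adult males. GAZX01016513 (435 nt) had 9.53 CPM in eggs, 66.4 CPM in copepodids, 78.8 CPM in chalimi, 0.161 CPM in adult females and 4.69 CPM in adult males. GAZX01016514, given above, completed the run. The 3 shared a male share of 2.87%, 2.94% and 3.95% and a female share of 0.173% or less, and each had the same count in the adult file as in female and male together.

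Taking larval contigs no more than 10 identifiers apart as 1 stretch, 5 stretches held 4 or more and 22 of the 113 in all. These stretches were singled out after their values were seen. That from GAZX01037933 to GAZX01037940 had 6 larval contigs among 8 identifiers and alone held 14.1% of the larval contigs' counts in chalimi and 16.4% in copepodids. Its members did not share a ratio: GAZX01037933 was 3.01-fold higher in chalimi (1592 CPM, against 529 CPM in copepodids), whereas GAZX01037935 was lower (406 CPM in chalimi, against 1014 CPM in copepodids). GAZX01037937 (432 CPM in chalimi and 691 CPM in copepodids) and GAZX01037939 (360 CPM in chalimi and 544 CPM in copepodids) lay between them. The contigs between the members, GAZX01037934 and GAZX01037938, missed the rule with chalimus shares of 12.9% and 16.3% and egg shares of 12.1% and 14.4%.

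**Figure D5:**
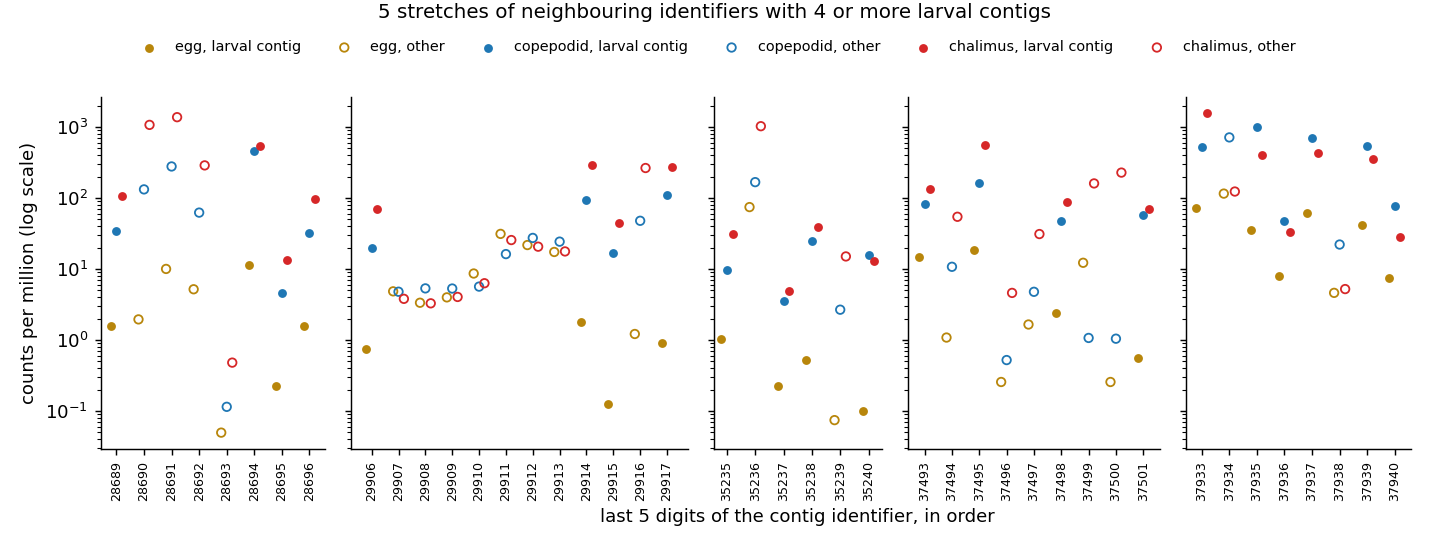
Level in CPM (log scale) in eggs, copepodids and chalimi of every contig in the 5 stretches of identifiers with 4 or more larval contigs; filled points are larval contigs and open points other contigs, and the axis gives the last 5 digits of each identifier. In the middle of the stretch that starts with GAZX01029906, the 3 libraries lie close together, while the larval contigs on either side have egg points well below the larval ones.

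The stretches also held 21 other contigs, among them GAZX01028693, whose sum of 0.722 CPM is below the minimum level. Of the 21, 19 had less than 5% of their CPM in both adult libraries together. The share of all contigs within this limit, or with the chalimus share given next, was not computed. The stretches were chosen for their larval contigs, so nothing is read from these counts. Chalimus held 75% or more in 11, among them GAZX01037500 at 99.4% (228 CPM in chalimi, 1.05 CPM in copepodids) and GAZX01028691 at 81.0% (1378 CPM in chalimi, 279 CPM in copepodids). In the stretch from GAZX01029906 to GAZX01029917, the 7 contigs GAZX01029907 to GAZX01029913 had egg shares of 27.9% to 42.5%, copepodid shares of 22.1% to 44.4% and chalimus shares of 27.4% to 34.8%. The 4 larval contigs of that stretch had egg shares of only 0.201% to 0.832% and were all at least 2-fold higher in chalimi than in copepodids with total counts, but with TMM GAZX01029906 alone was.

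Some contigs of a stretch had similar egg, larval and male shares. GAZX01028689 (399 nt), GAZX01028695 (575 nt) and GAZX01028696 (404 nt) had egg shares of 1.11%, 1.19% and 1.20%, chalimus shares of 73.8%, 72.7% and 73.2%, and male shares of 1.18%, 1.31% and 1.21%. Their female shares, from 7, 9 and 6 counts, were 0.0328%, 0.321% and 0.0305%. Their levels differed, at 105, 13.6 and 96.2 CPM in chalimi. GAZX01028694, in the same stretch, had a chalimus share of 53.6% at 549 CPM.

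The adult file without a sex has the same total as female and male together, and how its counts fall on single contigs could be set beside theirs. In 61 of the 113 larval contigs its count equalled female plus male, in 25 it was higher and in 27 lower. Over the stretch from GAZX01037933 to GAZX01037940, contigs gained 101 counts and lost 101, a net change of 0 on 1348 counts. Over GAZX01037493 to GAZX01037501 the gains and losses were 62 and 62, on 364 counts. Gains and losses thus balanced within these 2 stretches, and the adult counts of single contigs there are less certain than their counting error. Whether the larval counts are divided among neighbours in the same way was not tested. In the other 3 stretches of 4 or more the net changes were -48, 3 and 13 on 8617, 393 and 4384 counts. Of the 22 pairs of consecutive larval contigs, 14 had a changed count, and their net changes ran from -35 to 108, with 2 at 0.

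At the 20% threshold on each larval share, GAZX01011556, with its lower larval share at 20.3%, and GAZX01021139, at 20.5%, were just inside, and GAZX01025749 at 19.6% and GAZX01008818 at 19.0% just outside. For both shares together, GAZX01030297 at 90.03% and GAZX01038089 at 90.1% were inside, and GAZX01008834 at 89.98% and GAZX01005976 at 89.8% outside. For the sum, GAZX01032054 at 5.36 CPM and GAZX01032053 at 8.47 CPM were inside, and GAZX01019044 at 4.66 CPM and GAZX01032047 at 4.56 CPM outside. GAZX01008834, left out by its larval share, was an abundant contig, at 177 CPM in eggs, 646 CPM in copepodids, 991 CPM in chalimi, 1.04 CPM in adult females and 4.58 CPM in adult males.

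Within the set, 74 contigs had a larval share of 95% or more and 25 had 99% or more. Each larval library was also set against the egg and adults without the other. Without copepodid, chalimus held a median of 93.7% of the remaining 4 CPM (lowest 73.9%) and 90% or more in 76 of the 113. Without chalimus, copepodid held a median of 92.1% (lowest 69.7%) and 90% or more in 69. The rule bounds both shares from below, so nothing is read from these values.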

How the data were processed

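RNA-seq of 6 labelled samples was used. The deposited counts per contig are whole numbers and not normalised by the authors, per the file headers and the values. The FPKM values were deposited by the authors with 3 decimals. For the aligner, counting tool, assembly and treatment of reads matching several contigs, the method is not given in the sources used here. Contig lengths were recovered from counts and FPKM: with 1 scaling total per file, all contigs above 300 FPKM gave lengths within 0.00575 nt of a whole number, and those of the larval contigs lay within 0.106 nt. The summed counts fall short of that total by 1.08% in copepodid and by 0.149% or less elsewhere.

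Per contig, CPM is the count over the file total. The main scaling is file totals. edgeR 4.0.16 (TMM) and DESeq2 1.42.0 (size factors) gave alternative scalings in R 4.3.3, and other steps used Python 3.11.15 and SciPy 1.17.1. A contig was called by size alone: at least 4-fold after adding 0.5 counts per library, with 50 or more counts in the higher one. With 1 library per group no test was made. Ratios carry Clopper-Pearson 95% intervals. A fold against 0 counts uses 3 counts in that library and the lowest of the 3 scalings. The calculations were checked on simulated counts.

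The contigs, lists and comparisons were chosen with earlier results of these data known. Contigs were named by rank among the larval contigs (most counts, highest FPKM, highest, lowest and most even ratio, highest egg, female and male share, nearest the thresholds, longest run), at most 2 per end. All other contigs named were chosen after their values were seen.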

Additional observations from a re-analysis of the deposited data

Results flagged for a closer look

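The adult file without a sex enters no comparison, and it held more than 3 counts, the limit that a count of 0 allows, for 101 of the 113 larval contigs. Its total equals that of female and male together (difference 0), so it is not used as a further adult library.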

How the results depend on the processing

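No paired analysis was possible because each group has 1 library. The number of larval contigs, 113 with file totals, was 168 with TMM (104 of the 113 kept), 175 with DESeq2 size factors (103 kept), 117 with the 7055 contigs of copepodid alone (4.46% of its counts) left out of the totals, 143 and 91 with a minimum sum of 1 and 20 CPM, 149 and 66 with each share at 15% and 30%, and 200 and 74 with both together at 80% and 95%. Of the 113, 76 and 69 had 90% or more of the remaining CPM in the other larval library when copepodid and chalimus were left out in turn, an alternative added after seeing the data. The percent of the 113 called higher in chalimus than in copepodid, 0 as the rule requires, was 34.5% at 2-fold (42.3% of all contigs tested); that called lower was 13.3% at 2-fold, 7.08% with TMM and 7.96% with DESeq2 size factors (33.5%, 32.0% and 32.1% of all). Copepodid was called higher than egg in 96.5%, and in 100% with TMM, with DESeq2 size factors and at 2-fold (29.4%, 33.3%, 34.1% and 33.5% of all). Adult female was called lower than chalimus in 100% under the 5 alternatives tried (19.0% to 32.5% of all), and adult male in 98.2% to 100% (9.79% to 27.1% of all); the rule nearly fixes these. Leaving out the count minimum, or adding 2 counts instead of 0.5, moved none of these 5 percentages. Against total counts, TMM and DESeq2 size factors shift log2 chalimus over copepodid by -0.73 and -0.76. With the rule's cap on that ratio, the shift leaves room for lower calls among the 113 but not for higher ones at 4-fold. With 1 library per stage, variation among animal pools was not measured.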
